A study of Homo sapiens with 2 samples.

Results

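The 44 genes described here encode proteins of the centromere, the kinetochore and the spindle assembly checkpoint, and they were taken by gene symbol from the 60623 named genes of the deposited count table. All 44 symbols were found. They were sorted by role into 19 genes of the inner centromere network, 15 of the outer kinetochore and 9 of the checkpoint, with CENPJ kept apart because its product works at the centriole. Measurements came from RNA-seq of HCT116, an established epithelial line from a colon carcinoma, with 1 library per treatment. The siControl culture received a non-specific siRNA, and the siKAT7 culture received an siRNA against KAT7 (HBO1), a MYST-family histone acetyltransferase. Both cultures carry the label WT for genotype, both were transfected with Lipofectamine 2000, and no time point or siRNA sequence is given in the sources used here. The comparison asks how transcript levels differ when KAT7 is targeted.

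The kinetochore is the protein assembly that joins a chromosome to spindle microtubules in mitosis. Nucleosomes that carry the histone H3 variant CENP-A mark the centromere, and a constitutive network of CENP proteins sits on them through the cell cycle. On that base an outer layer forms in mitosis, whose NDC80 complex grips microtubules. Kinetochores without attachment activate the spindle checkpoint, in which MAD2 and BUBR1 hold the anaphase activator CDC20 until every chromosome is attached. Many of these genes are transcribed mainly in G2 and mitosis, through the MuvB complex with B-MYB and FOXM1, which is known to bind the cell cycle homology region of their promoters.

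Library totals over named genes were 23450331 (siControl) and 23533186 (siKAT7) expected counts. KAT7, the targeted gene, stood at 442.94 expected counts in siControl and at 287.22 in siKAT7, which is 18.2 against 12.7 CPM (counts scaled to library size by TMM). Its level in siKAT7 was 69.6% of that in siControl, with a 95% counting interval of 59.7% to 80.8%. All 5 epithelial markers were measured, with KRT8 at 5720 CPM in siControl. Of 5 fibroblast markers only COL1A1 was measured, and of 5 blood cell and 4 endothelial markers none was, with PTPRC, HBB, PECAM1, CDH5, KDR and PDGFRA at 0 counts in both libraries. Of the markers under the filter, VWF had 20 and 22 counts and LYZ 0 and 7. The filter on low values asked for a mean level of 1 CPM or more, and all 44 genes passed it, among 13217 measured genes in all. Their expected counts were whole numbers in both libraries for 33 of the 44.

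Every difference below is a log2 ratio of CPM, siKAT7 over siControl. The range beside it is an exact 95% counting interval (Clopper-Pearson). A gene was called lower or higher at 1.5-fold or more (a log2 ratio of 0.58 in size) with an interval that excluded 0. With 1 library per group the spread between cultures is unknown, and no test of the treatment was possible.

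In siKAT7, 6 of the 44 genes were called lower and 0 were called higher. Over all 13217 measured genes 3.91% were called lower and 3.92% higher, beside 13.6% and 0 of these 44. Without the condition on the interval the count was again 6, against 4.44% of all genes, and at 2-fold it was 2, CENPC and NDC80, against 1.09%. The 6 genes were CENPC and HJURP of the inner network and NDC80, NUF2, CENPF and CENPE of the outer kinetochore. No checkpoint gene was called either way. Of the 44, 28 had log2 ratios below 0 and 16 above, a share below 0 of 63.6% against 50.7% of all measured genes. Intervals lay wholly below 0 for 23 genes (52.3%, against 22.0% of all measured genes) and wholly above 0 for 5 (11.4%, against 23.0%). The median log2 ratio was -0.17, beside a median of -0.0048 over all measured genes. Total-count scaling lowers all log2 ratios by a median of 0.11, and it put 9 genes past the lower limit, against 6.34% of all genes, and 0 past the higher, against 2.72%. On that scaling 35 of the 44 (79.5%) lay below 0, against 65.9% of all genes.

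**Figure D1:**
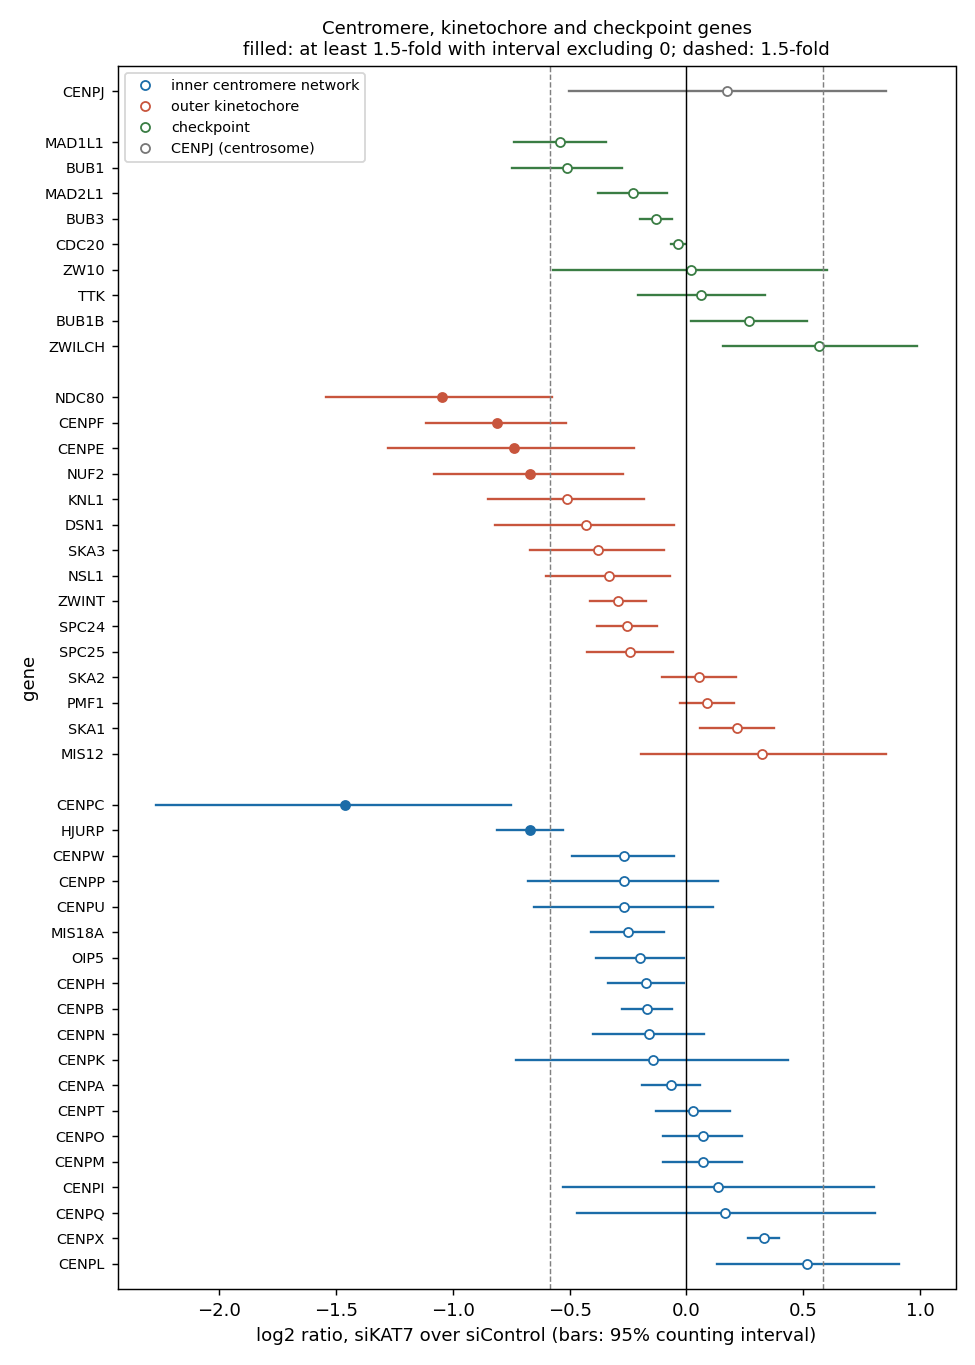
Log2 ratio of each gene (horizontal axis, siKAT7 over siControl) with its 95% counting interval, grouped by role, with filled points for called genes and dashed lines at 1.5-fold. The 6 filled points all lie left of 0, from CENPC at -1.46 to HJURP at -0.67, and no gene on the right of 0 is filled.

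The promoter windows of the called genes are shown because the MuvB-bound element is a short letter string that can be looked for. They come from RefSeq on GRCh38.p14 and run 5′ to 3′ on the gene's strand from 250 bases before the start to 30 after. Capitals mark TTTGAA, the core of the cell cycle homology region, and CCAAT, the CCAAT box, on either strand (TTCAAA and ATTGG are their reverse complements). The windows are chr18:2571307-2571586 on the forward strand for NDC80, chr1:163321704-163321983 forward for NUF2 (whose RefSeq start lies inside the GENCODE gene model), chr1:214602945-214603224 forward for CENPF, chr4:103198314-103198593 reverse for CENPE and chr2:233854506-233854785 reverse for HJURP. CENPC had fewer than 100 summed counts, and its window is not printed.
NDC80: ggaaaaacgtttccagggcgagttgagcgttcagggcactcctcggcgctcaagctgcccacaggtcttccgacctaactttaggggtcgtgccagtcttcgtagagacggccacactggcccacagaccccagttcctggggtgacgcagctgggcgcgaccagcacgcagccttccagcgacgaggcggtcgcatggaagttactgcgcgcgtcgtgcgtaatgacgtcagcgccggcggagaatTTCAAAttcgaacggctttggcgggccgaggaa
NUF2: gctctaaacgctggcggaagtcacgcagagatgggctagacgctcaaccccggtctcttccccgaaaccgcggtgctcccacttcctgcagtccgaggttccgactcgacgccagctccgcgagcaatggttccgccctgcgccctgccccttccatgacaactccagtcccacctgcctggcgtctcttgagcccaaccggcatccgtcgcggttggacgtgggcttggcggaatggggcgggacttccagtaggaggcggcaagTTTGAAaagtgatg
CENPF: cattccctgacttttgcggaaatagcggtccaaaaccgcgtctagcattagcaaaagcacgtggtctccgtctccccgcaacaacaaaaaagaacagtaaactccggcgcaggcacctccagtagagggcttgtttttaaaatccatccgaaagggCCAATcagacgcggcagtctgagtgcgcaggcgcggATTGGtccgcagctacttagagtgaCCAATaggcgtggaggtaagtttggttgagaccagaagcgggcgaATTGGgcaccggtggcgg
CENPE: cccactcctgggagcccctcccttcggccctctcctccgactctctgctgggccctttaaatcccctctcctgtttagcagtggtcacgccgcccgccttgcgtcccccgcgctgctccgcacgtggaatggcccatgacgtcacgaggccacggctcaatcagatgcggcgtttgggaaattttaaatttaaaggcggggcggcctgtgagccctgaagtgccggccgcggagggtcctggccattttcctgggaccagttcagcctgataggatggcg
HJURP: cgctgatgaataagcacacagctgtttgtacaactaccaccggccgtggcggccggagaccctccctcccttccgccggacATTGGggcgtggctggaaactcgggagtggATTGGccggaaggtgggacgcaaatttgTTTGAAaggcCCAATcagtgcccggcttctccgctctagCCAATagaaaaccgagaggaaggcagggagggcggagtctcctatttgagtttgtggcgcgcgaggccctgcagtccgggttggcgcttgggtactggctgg
The single TTTGAA match of NDC80 begins 3 bases before the start, that of NUF2 17 bases after it and that of HJURP 111 bases before it. In CENPF the match begins 41 bases after the start, just past the printed stretch, and 3 CCAAT matches precede the start. HJURP also has 4 CCAAT matches, all before the start. CENPE has neither string in its window. CENPC has 1 TTTGAA and 2 CCAAT matches. No match of one string overlaps a match of the other in the printed windows.

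Of the 44 genes, 36 had a promoter of 300 bases (250 before to 50 after the start) in the RefSeq table, and BUB3, CENPH, CENPJ, CENPL, CENPM, KNL1, MIS18A and TTK did not. TTTGAA was present in 16 of the 36 (44.4%), against 8.92% of 9467 promoters of measured protein-coding genes and 15.4% of all 27305 promoters. CCAAT was present in 22 of 36 (61.1%), against 36.6% of the measured protein-coding set. Both strings occurred together in 10 of 36 (27.8%), against 3.81%. An E2F string (TTTGGCGC, TTTCCCGC, TTTGCCGC or TTTCGCGC on either strand) was present in 4 (11.1%), against 5.43%. TTTGAA matched in 5 of the 6 genes called lower and in 11 of the other 30. TTTGAA and CCAAT occurred together in 3 of the 6 and in 7 of the other 30. CCAAT went the other way, with matches in 3 of the 6 and in 19 of the other 30. So did the E2F string, with matches in 0 of the 6 and in 4 of the other 30. None of these splits was tested. CDC20 has 2 TTTGAA and 2 CCAAT matches with a log2 ratio of -0.04, and SKA1 and BUB1B each have 1 TTTGAA match with log2 ratios of 0.22 and 0.27, so promoters with the string were also found among genes close to or above 0. A match is a string of letters, and no binding was measured.

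The inner network holds the largest difference of the set. CENPC, which binds CENP-A nucleosomes and links them to the outer kinetochore, had 63 counts in siControl against 21 in siKAT7 (2.59 and 0.926 CPM). Its siKAT7 level was 36.3% of the siControl level, a log2 ratio of -1.46 with an interval of -2.27 to -0.75. CENPC was the single gene of the 44 whose interval lay wholly past 1.5-fold, and the share of all genes with such an interval was not counted. Its counts are few. Of the 2260 measured genes between 1 and 3 CPM on average, 12.6% were called lower. Their ratios reached from -1.38 to 1.32 over the central 95% of genes, and CENPC lay just beyond that range. CENPC (ENSG00000145241) lies on chromosome 4 of GRCh38 at 67468748 to 67545606, on the reverse strand.

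HJURP, the chaperone that deposits new CENP-A, had 1107 counts in siControl against 649 in siKAT7 (45.5 and 28.6 CPM). It was 1.59-fold lower, a log2 ratio of -0.67 with an interval of -0.81 to -0.53. HJURP is the best counted of the 6 called genes, and 0.15% of the 4675 genes at 30 CPM or more were called lower. The central 95% of that class ran from -0.39 to 0.49, and HJURP lay below it. HJURP (ENSG00000123485) is on chromosome 2 at 233833416 to 233854566, reverse strand.

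The other CENP-A loading factors, both of the MIS18 complex that prepares centromeres for HJURP, had smaller differences in the same direction. MIS18A had 771 counts in siControl and 604 in siKAT7, a log2 ratio of -0.25 (-0.41 to -0.09). OIP5, the MIS18-beta subunit, had 516.04 and 418.75, a log2 ratio of -0.20 (-0.39 to -0.01). OIP5 shares 470 exon bases with the antisense gene OIP5-AS1 (762.42 and 782.47 counts), and reads of the pair cannot be told apart without strand. Summed, the pair had a log2 ratio of 0.01 (-0.10 to 0.13). The 3 loading genes together had 2394.04 counts in siControl and 1671.75 in siKAT7, a log2 ratio of -0.42 (-0.51 to -0.33).

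CENPA itself, the product that these factors load, had 1128 and 1003 counts, or 46.3 and 44.2 CPM. Its interval around -0.07, from -0.19 to 0.06, spans 0 and lies wholly above that of HJURP. CENPB, which binds alpha satellite DNA, had 1588 and 1316 counts and a log2 ratio of -0.17 (-0.28 to -0.06).

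The remaining inner genes form the constitutive network, and none was called. CENPX, a histone-fold subunit, and CENPL, a partner of CENPN, were the only inner genes with intervals wholly above 0. CENPX had 3574 counts in siControl against 4186 in siKAT7 (147 and 185 CPM), a log2 ratio of 0.33 (0.27 to 0.39). CENPL had 99 and 132 counts and the highest log2 ratio of the inner group, 0.51 (0.13 to 0.91).

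CENPW and CENPT, histone-fold partners that bind DNA next to CENP-A nucleosomes, had log2 ratios of -0.27 (-0.49 to -0.05) and 0.03 (-0.13 to 0.19). With CENPX included the summed ratio was 0.25 (0.19 to 0.30), of which CENPX supplied most counts. The 4 measured genes of CENP-H/I/K/M summed to -0.05 (-0.17 to 0.06), and within them CENPH was at -0.17 (-0.34 to -0.01). CENPM, CENPK and CENPI were at 0.07, -0.14 and 0.14, each with an interval that spanned 0. The 4 genes of CENP-O/P/Q/U summed to -0.01 (-0.15 to 0.13), from CENPP at -0.27 and CENPU at -0.27 to CENPO at 0.07 and CENPQ at 0.17. CENPN, which reads the CENP-A nucleosome, was at -0.16 (-0.40 to 0.08), or at 0.27 when summed with its overlapping neighbours. Across the 19 inner genes the median was -0.16, with 12 below 0 and 7 above, and 10 intervals spanned 0. Under total-count scaling CENPM, CENPO and CENPT turned negative.

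CENPN, CENPO and CENPP share exon bases with better counted genes on the opposite strand, among them CMC2, ADCY3 and IPPK. With every such overlapping model summed in, the inner median moved to -0.04 while the outer median stayed at -0.33. Of the 6 called genes only HJURP and NUF2 overlapped a model with any counts, by 8 bases with MROH2A (1 and 0 counts) and by 5 bases with RGS5 (2 and 1.6 counts).

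Outer kinetochore genes had the lowest median log2 ratio of the 3 role groups, -0.33, a difference between groups that was not tested. At a mean of 10 CPM or more the outer median was -0.24, and the called genes NDC80, NUF2, CENPF and CENPE lay under that filter. Of the 15 outer genes, 11 had intervals wholly below 0 (73.3%, against 22.0% of all measured genes). Calls of lower numbered 4 (26.7%, against 3.91%), and SKA1 alone had an interval wholly above 0.

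NDC80, the microtubule-binding subunit that gives its complex its name, had 120 counts in siControl against 54 in siKAT7 (4.93 and 2.38 CPM). It was 2.06-fold lower, a log2 ratio of -1.04 (-1.54 to -0.58), and it lay below the central 95% of the 3123 genes between 3 and 10 CPM (-0.74 to 0.76). NDC80 (ENSG00000080986) is on chromosome 18 at 2571511 to 2616635, forward strand. NUF2, its coiled-coil partner, had 142 and 83 counts and was 1.59-fold lower, a log2 ratio of -0.67 (-1.08 to -0.27), inside that range. NUF2 (ENSG00000143228) is on chromosome 1 at 163266576 to 163355764, forward strand.

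SPC24 and SPC25, the subunits that dock this complex onto the inner kinetochore, differed less. SPC25 had 555 and 437 counts, a log2 ratio of -0.24 (-0.43 to -0.06), and SPC24 had 1136 and 887.96, a log2 ratio of -0.25 (-0.38 to -0.13). The interval of NDC80 did not overlap those of SPC24 and SPC25, whereas that of NUF2 did. All 4 subunits had intervals below 0, and their summed counts of 1953 and 1461.96 gave a log2 ratio of -0.32 (-0.41 to -0.22).

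CENPF and CENPE, very large coiled-coil proteins of the fibrous corona, were the other called genes. CENPF, which binds microtubules and dynein regulators, had 271 counts in siControl against 144 in siKAT7 (11.1 and 6.35 CPM), a log2 ratio of -0.81 (-1.11 to -0.51). It lay below the central 95% of genes of its expression class. CENPE, a kinesin that carries chromosomes toward microtubule plus ends, had 88 and 49 counts, a log2 ratio of -0.74 (-1.28 to -0.22). CENPE had a mean below 3 CPM and lay inside the range of its class. CENPF (ENSG00000117724) is on chromosome 1 at 214603195 to 214664588, forward strand, and CENPE (ENSG00000138778) on chromosome 4 at 103105806 to 103198409, reverse strand.

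KNL1, the scaffold that recruits BUB proteins, and its partner ZWINT were both lower within the 1.5-fold limit. KNL1 had 193 and 126 counts, a log2 ratio of -0.51 (-0.85 to -0.18), and was past the limit under total-count scaling at -0.62. ZWINT had 1335 and 1015 counts and lay at -0.29 (-0.41 to -0.17) on the log2 scale.

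The MIS12 complex, which bridges CENPC to NDC80 and KNL1, was divided. DSN1 was at -0.43 (-0.82 to -0.05) and NSL1 at -0.33 (-0.60 to -0.07). PMF1 was at 0.09 (-0.03 to 0.20) and MIS12 at 0.33 (-0.19 to 0.85), the highest ratio of the outer group but on 58.88 and 68.82 expected counts. PMF1 shares exons with the readthrough model PMF1-BGLAP, and the pair summed to 0.11 (-0.000355 to 0.23). The 4 genes together had a log2 ratio of -0.0024 (-0.10 to 0.10).

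In the SKA complex, which holds kinetochores to shrinking microtubule ends, the subunits also differed. SKA3 had 246 and 176 counts, a log2 ratio of -0.38 (-0.67 to -0.10). SKA1 had 631 and 683 counts, a log2 ratio of 0.22 (0.06 to 0.37). SKA2 was at 0.05 (-0.10 to 0.21) and turned to -0.05 under total-count scaling, as PMF1 did to -0.02. The intervals of SKA1 and SKA3 did not overlap.

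Checkpoint genes had a median of -0.04, with 5 of 9 intervals wholly below 0 and 2 wholly above. These are 55.6% and 22.2%, against 22.0% and 23.0% of all measured genes. At a mean of 10 CPM or more the checkpoint median was -0.18, beside -0.16 for the inner network and -0.24 for the outer kinetochore. MAD1L1, which brings MAD2 to unattached kinetochores, had 553.57 expected counts in siControl against 354.59 in siKAT7 (22.8 and 15.7 CPM). Its log2 ratio of -0.54 (-0.74 to -0.35) was the lowest of the group. BUB1, the kinase that marks centromeric chromatin and recruits other checkpoint proteins, had 385 and 252 counts, a log2 ratio of -0.51 (-0.74 to -0.28). Both stayed within 1.5-fold here and were past it under total-count scaling, at -0.65 and -0.62.

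The subunits of the mitotic checkpoint complex, the inhibitor that captures CDC20, lay on both sides of 0. MAD2L1 (MAD2) had 850 and 676 counts, a log2 ratio of -0.23 (-0.38 to -0.08), and BUB3 had 3733 and 3182, a log2 ratio of -0.13 (-0.20 to -0.06). BUB1B (BUBR1) had 256.54 and 287.87, a log2 ratio of 0.27 (0.02 to 0.51). CDC20 had 19216.49 and 17452.82 counts, a log2 ratio of -0.04 (-0.07 to -0.0072). Its interval excludes 0 because the gene is so well counted, and the difference is small.

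TTK (MPS1), the kinase at the top of the checkpoint, was at 0.06 (-0.21 to 0.34). ZWILCH and ZW10 belong to the ROD-ZW10-ZWILCH complex, which brings dynein and MAD1-MAD2 to kinetochores. ZWILCH had 86 and 119 counts and the highest log2 ratio of the 44, 0.57 (0.16 to 0.99). ZWILCH shares 158 exon bases with RPL4 on the opposite strand, which had 25535.29 and 22892.93 counts, and the pair, nearly all RPL4, summed to -0.05 (-0.08 to -0.03). ZW10 had 53 and 50 counts, a log2 ratio of 0.02 (-0.57 to 0.60). TTK and ZW10 turned negative under total-count scaling.

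CENPJ (CPAP), the centriole elongation factor, had 38 and 40 counts, a log2 ratio of 0.17 with a wide interval of -0.50 to 0.86.

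Levels were compared between genes as CPM per kb of the longest annotated transcript. CDC20 was the highest at 444 in siControl and 433 in siKAT7, followed by CENPX at 164 and 206, PMF1 at 39.9 and 42.4 and CENPA at 31.9 and 30.5. The lowest in siControl were CENPJ at 0.311, CENPC at 0.373 and CENPE at 0.420. CENPC passed below CENPJ in siKAT7, where it was the lowest of all at 0.133, with CENPE next at 0.251. In the NDC80 complex, whose subunits are present in equal number in the protein assembly, SPC24 stood at 20.2 and SPC25 at 16.8 in siControl against 2.96 for NUF2 and 2.27 for NDC80. In siKAT7 the levels were 16.9, 14.2, 1.86 and 1.10. The pair with the lower transcript level was also the pair called lower, but calls were more frequent among poorly counted genes in general. Of all genes at 3 to 10 CPM, the class of NDC80 and NUF2, 5.54% were called lower. The share was 1.68% at 10 to 30 CPM, where SPC25 lay, and 0.15% at 30 CPM or more, where SPC24 lay. In all, 15 of the 44 genes held the same rank in both libraries. Which transcript of a gene was expressed is not known from gene counts, so these levels are approximate.

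**Figure D2:**
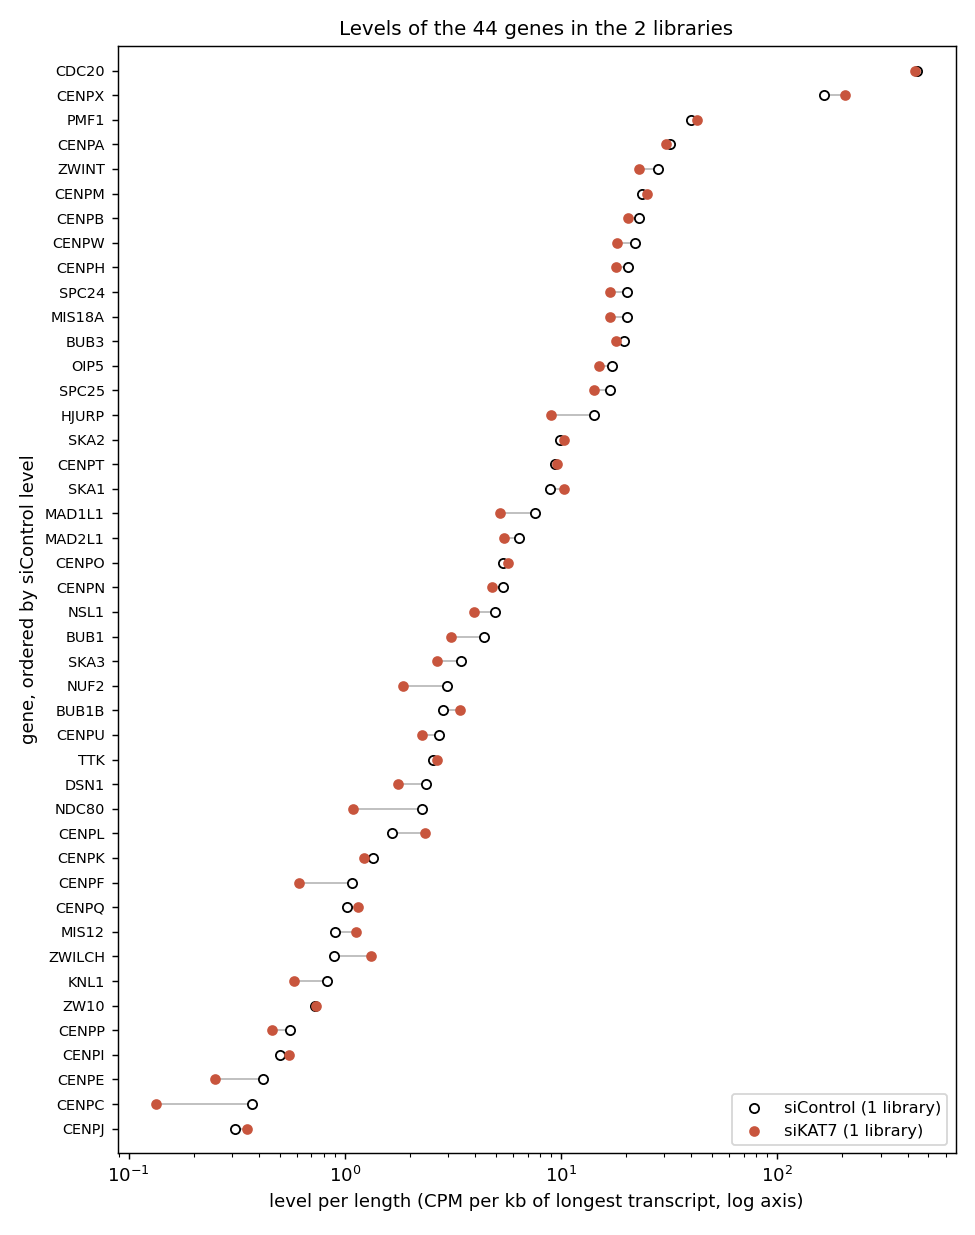
Level of each gene per kb of its longest transcript (horizontal log axis, CPM per kb) in siControl (open) and siKAT7 (filled), 1 library each, ordered by the siControl level. CDC20 at 444 and CENPX at 164 stand above the rest, and the widest gap between the points is that of CENPC, from 0.373 to 0.133.

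The counts summed over all 44 genes were 44997.3 in siControl and 40127.3 in siKAT7, a log2 ratio of -0.06 (-0.08 to -0.04). CDC20 supplied much of that sum, and without it the ratio was -0.08 (-0.11 to -0.06). By role the sums gave -0.01 (-0.04 to 0.03) for the inner network, -0.17 (-0.22 to -0.12) for the outer kinetochore and -0.15 (-0.21 to -0.10) for the checkpoint without CDC20. In the inner and outer groups the sums lay closer to 0 than the medians, and 5 of the 6 called genes had a mean below 10 CPM.

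Placement by expression shows where the called genes fall. In the 1 to 3 CPM class 2 of 8 genes were called lower, against 12.6% of all genes there, and in the 3 to 10 CPM class 3 of 11, against 5.54%. In the 10 to 30 CPM class none of 15 was called, against 1.68%, although the median of those 15 was -0.17 beside -0.04 for the class. Above 30 CPM 1 of 10, HJURP, was called, against 0.15%, and the median of those 10 was -0.15 beside 0.02. HJURP was thus the only called gene of the 25 at 10 CPM or more.

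**Figure D3:**
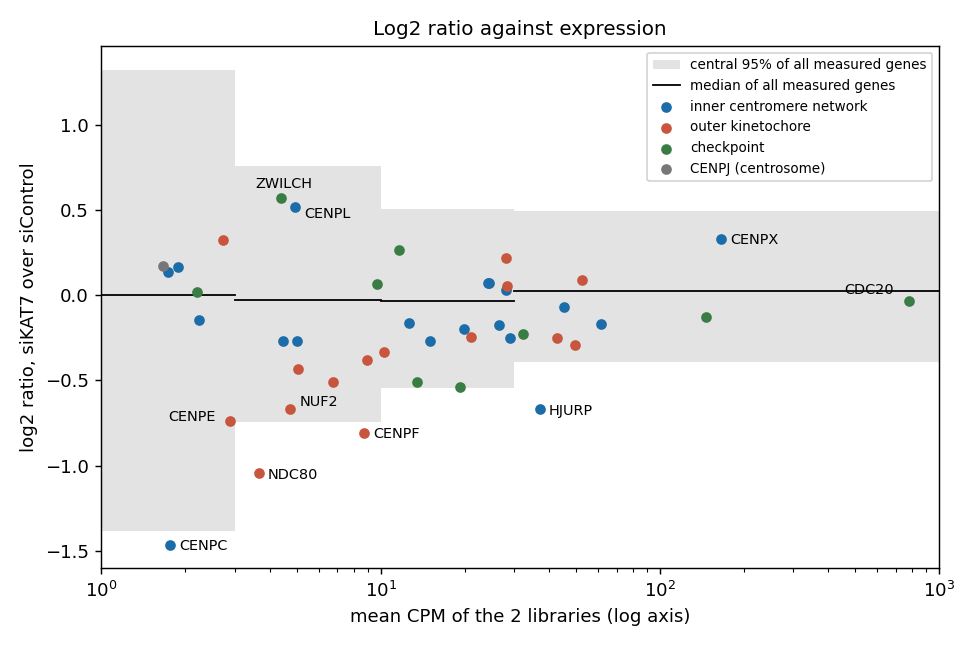
Log2 ratio (vertical axis) against mean CPM of both libraries (log axis) for the 44 genes, coloured by role, over the median and central 95% of all measured genes in 4 expression classes. CENPC, NDC80, CENPF and HJURP lie below the shaded range of their class, and no gene lies above it.

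Transcript length moved with the ratios in these libraries as a whole. Over measured protein-coding genes the median log2 ratio was 0.22 for longest transcripts under 1 kb, 0.10 for 1 to 2 kb, -0.0017 for 2 to 4 kb and -0.07 at 8 kb or more. The 4 genes of at least 8 kb were CENPF, CENPE, KNL1 and CENPP, with a median of -0.62, and 3.65% of all genes of that length were called lower. CENPC, at 6940 bases, belongs to the 6 to 8 kb class, whose median was -0.06. NDC80 (2172 bases), NUF2 (1969) and HJURP (3187) are of ordinary length, and the 13 genes of 1 to 2 kb had a median of -0.17 where that of the class was 0.10. The 20 genes of 2 to 4 kb lay closer to their class, with a median of -0.07 beside -0.0017. Of these 20, 10 were below 0, against 50.3% of the class. The 3 genes of 4 to 6 kb had a median of 0.07, above the -0.05 of their class. Across the 44 genes Pearson's r of log2 ratio with log2 length was -0.29 and Spearman's rho -0.16, as a description across genes that share the same libraries. Over 11979 protein-coding genes the values were -0.16 and -0.20. RNA quality was not recorded, and the part of length in these differences was not tested.

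**Figure D4:**
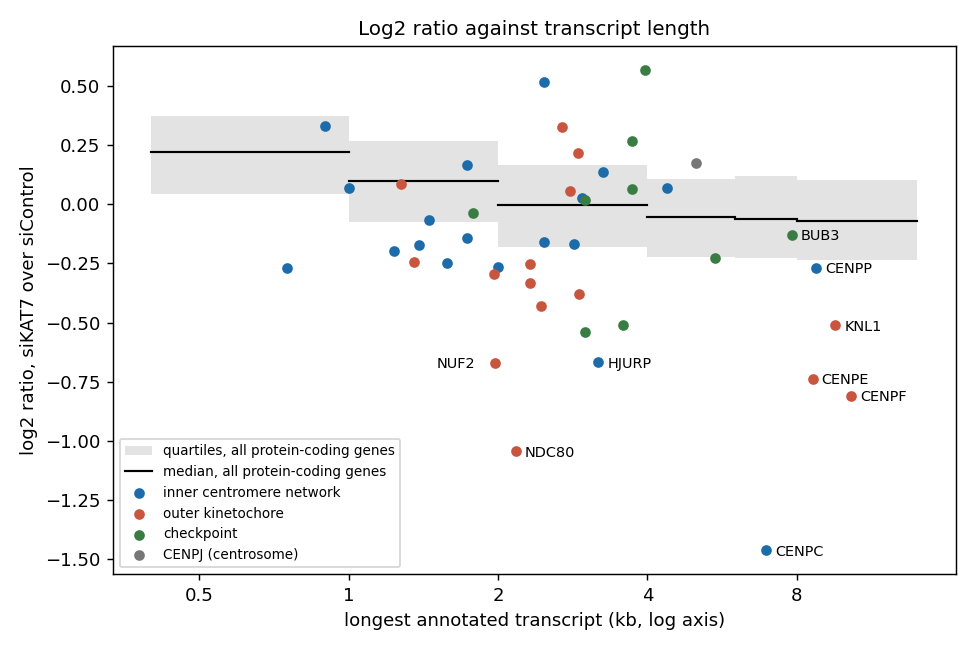
Log2 ratio (vertical axis) against longest annotated transcript (kb, log axis) for the 44 genes, coloured by role, over the median and quartiles of all measured protein-coding genes in 6 length classes. The class medians run from 0.22 to -0.07, and CENPF, CENPE, CENPC, NDC80, NUF2 and HJURP lie well below them.

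Genes that act with the kinetochore but were not among the 44 gave the following. Of 20 further kinetochore and checkpoint genes, 2 were called lower and 0 higher, with a median of -0.03 and 13 below 0. Over all measured genes 3.91% were called lower, 3.92% were called higher and 50.7% lay below 0. KNTC1, which encodes the ROD partner of ZW10 and ZWILCH, had 153 and 83 counts, a log2 ratio of -0.78 (-1.18 to -0.39). Its interval did not overlap that of ZWILCH (0.16 to 0.99), a gene that shares exon bases with RPL4. ZW10 had an interval that spanned 0, so its direction is not known. CENPS, the histone-fold partner of CENPX, had 106.54 and 52.82 expected counts, a log2 ratio of -0.91 (-1.41 to -0.42). Its reads are divided with the readthrough model CENPS-CORT, and the pair summed to -0.91 (-1.32 to -0.52). CENPS thus lay on the opposite side of 0 from CENPX, with intervals that did not overlap.

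The 4 genes of the chromosomal passenger complex, which corrects faulty attachments, had a median of -0.15 with 0 called. The 19 genes of the anaphase-promoting complex and its targets, on which CDC20 acts, had a median of -0.09 with 0 called. Of the 12 genes of mitotic entry, 2 were called lower, CCNB2 (-0.66, interval -0.81 to -0.50) and CCNA2 (-0.61, -0.78 to -0.45), and the median was -0.34 with 10 below 0. The 10 MuvB, FOXM1 and B-MYB genes had a median of -0.13, with the MuvB subunit LIN54 called lower (-0.69, -1.11 to -0.29), FOXM1 at -0.19 (-0.29 to -0.09) and MYBL2 at -0.05 (-0.12 to 0.02). The 6 genes of the MCM2-7 helicase, which act in S phase, had a median of -0.29 with all 6 intervals below 0 and MCM4 called lower. The 12 reference genes centred on 0.03, or on -0.08 with total-count scaling. Beside these lists, 3.91% of all measured genes were called lower, 50.7% lay below 0 and 22.0% had intervals wholly below 0. In bulk RNA, fewer cells in G2 and mitosis and less of each transcript per cell cannot be told apart.

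**Figure D5:**
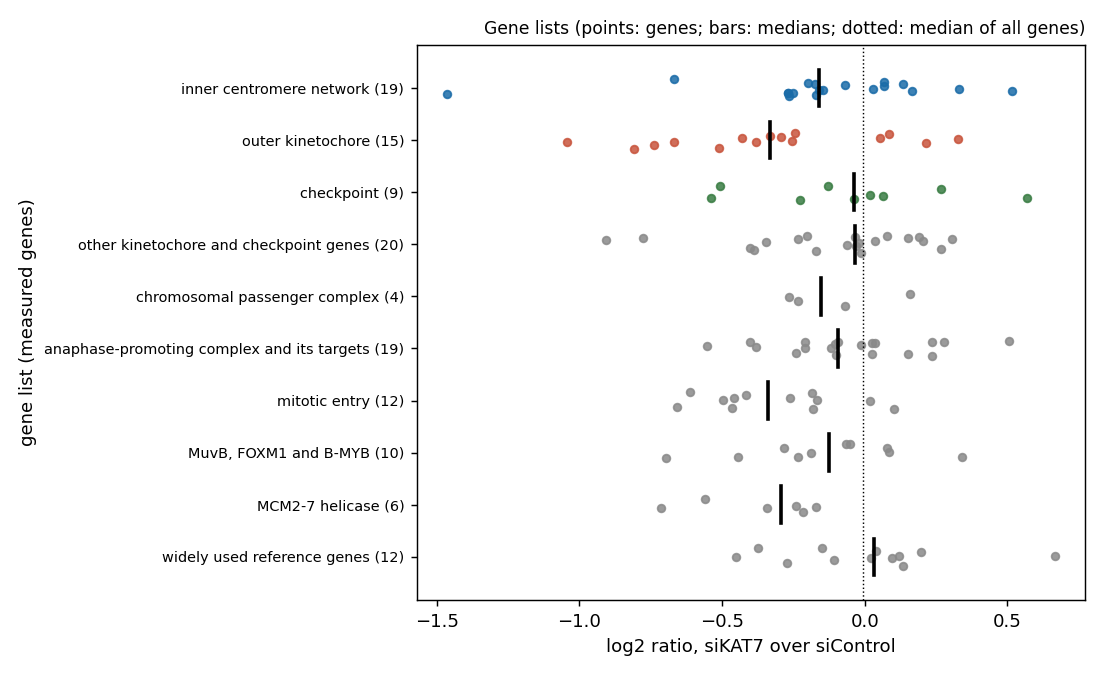
Log2 ratio of each measured gene (horizontal axis) in 10 gene lists, with a bar at each list's median and a dotted line at the median of all measured genes. The medians of the outer kinetochore (-0.33), mitotic entry (-0.34) and MCM2-7 (-0.29) lie farthest left, and the checkpoint (-0.04) lies close to the dotted line.

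Of the 44 genes, CENPC and NDC80 are marked significant in the authors' deposited table, with log2 folds of -1.59 and -1.16. HJURP at -0.78 and the targeted gene KAT7 at -0.63 are not marked, although their adjusted p-values are smaller. The mark thus did not rest on the adjusted p-value alone, and the share of all genes that carry it was not counted here. The authors' log2 folds are below 0 for 35 of the 44. On total-count scaling, 65.9% of all measured genes lay below 0. The authors' p-values compare 2 libraries and not the treatments.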

How the data were processed

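RNA-seq of total RNA from 1 siControl and 1 siKAT7 culture of HCT116 cells was used. The deposited table gives expected counts per gene, which are estimates and can be fractional. The submitters' processing notes name RSEM 1.3.3 and GRCh38.p13. Strand setting, aligner and annotation release: not given in the sources used here. RSEM divides reads among overlapping gene models, which can move counts between them. The 331 unnamed rows (1.11% of counts in siControl and 1.67% in siKAT7) stayed out of library sizes. Both count columns are repeated in the table with 0 differing cells and were used once. The authors' deposited table of the comparison holds a fold (ratio) and its log2 with a raw and an adjusted p-value, from a tool that no source names.

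Counts were rounded and scaled with TMM factors (edgeR 4.0.16, R 4.3.3) of 1.04 and 0.964 over all named genes. Log2 ratios used a prior count of 0.5, and 95% intervals were Clopper-Pearson (scipy 1.17.1). They cover counting error only, and without molecular identifiers the reads may include copies of one molecule. The filter on low values was a mean level of 1 CPM. Lengths and coordinates came from GENCODE 29 (58516 of 60623 identifiers found), and the longest transcript of a gene was its length. Promoters came from RefSeq on GRCh38.p14. The calling script was tested on simulated data.

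The genes, lists, complexes and rules were chosen with earlier results of these data known. Named genes were KAT7, each called gene, the lowest and highest of each role group with at least 100 summed counts, and up to 3 called genes of each other list, and the other members are given by complex. Alternatives tried were scaling by total count or by DESeq2 1.42.0 size factors, a larger prior count (5), other call rules and expression filters, the authors' folds, and sums with overlapping models, of which the sum with every overlapping model was chosen after seeing the data. Some genes of the marker and reference lists and some overlapping models are not reported here.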

Additional observations from a re-analysis of the deposited data

How the results depend on the processing

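The genes called lower, 6 of 44, depended on the call rule and the expression filter. At 2-fold 2 were lower (CENPC and NDC80), against 1.09% of all measured genes, and with an interval bound past 1.5-fold 1 was (CENPC). For that interval rule the share of all genes was not counted. With the filter raised to 10 CPM 1 (HJURP) of 25 was lower, with 17 of those 25 below 0. Of all genes, 1.68% at 10 to 30 CPM and 0.15% at 30 CPM or more were called lower. The share of all genes below 0 at that filter was not counted. With an interval that excluded 0 as the only condition, 23 were lower and 5 higher, against 22.0% and 23.0% of all measured genes. Total-count scaling and the authors' folds each gave 9, adding MAD1L1, KNL1 and BUB1. DESeq2 size factors, a prior count of 5 and no expression filter left the number at 6. The median of the 44 genes ran from -0.28 (total-count scaling and the authors' folds) to -0.13 (overlapping models summed). No called gene changed sign under the alternatives tried. No replicate could be left out because each group had 1 library. No paired analysis was possible because each group had 1 library. Depth limits the 8 genes under 3 CPM most.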
